A study of Homo sapiens with 4 samples.

Results

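Divergent promoters of protein-coding genes were examined in the open chromatin of SK-N-BE(2)C, a human neuroblastoma cell line with amplified MYCN. A divergent pair was taken as 2 protein-coding genes on opposite strands whose transcription start sites (TSSs) lay head to head at most 1 kb apart, with the minus-strand TSS upstream, and the stretch from one TSS to the other was 1 region. The annotation (GENCODE v44, genome build GRCh38, TSS of each gene's canonical transcript) held 984 such pairs, made from 1895 of 19970 protein-coding genes, or 9.49%. Some genes had more than 1 partner, so that the 984 stretches merged into 912 separate ones. The remaining 18075 protein-coding genes had no such partner, and their promoters are called stand-alone here.

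The series compared cells in which the long non-coding RNA gene SNHG1 had been targeted (sgSNHG1, genotype SNHG1 knockout, Cas9 with dual guide RNAs) with cells given a non-targeting gRNA (control, genotype wildtype). Per the labels, which describe the same treatment for the samples of both groups, cells had been transfected with Cas9 and reporter constructs, selected with puromycin and sorted into single-cell clones that were then expanded, so a difference between groups cannot be told apart from a difference between clones, and which clones gave the ATAC-seq libraries is not given in the sources used here. ATAC-seq, in which a transposase cuts and tags accessible DNA, was done on 2 samples of each group. The authors combined the 2 replicates of each group before calling peaks, which left 47610 control and 42682 sgSNHG1 peaks and no spread between replicates. No test between the groups was therefore possible, and the intervals below cover the number of promoters counted, not the error between cultures, and treat pairs that share a peak as separate.

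A peak's fold enrichment is the pile of fragments at its summit, its highest point, over the local background in the same list. The median peak held 24 fragments at its summit in control and 20 in sgSNHG1, and at divergent pairs the medians were 47 and 36. At the SNHG1 promoter itself (chr11, TSS 62855922) each list held 1 peak within 1 kb, enriched 5.71-fold in control and 6.04-fold in sgSNHG1, so these lists do not check the depletion. Of 14 adrenergic neuroblastoma genes, 13 had a peak within 1 kb of the TSS in control and 12 in sgSNHG1, against 8 and 7 of 10 mesenchymal and fibroblast genes, 0 and 0 of 8 blood cell genes and 1 and 0 of 8 epithelial and endothelial genes. None of these marker genes belonged to a divergent pair.

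Divergent promoters start transcription of a gene on each side from a shared stretch of DNA that is usually rich in CpG and kept free of nucleosomes. Genes arranged in this way are known to include many of the housekeeping kind, with roles in DNA repair, mitochondria and the making of histones. Sequence elements common in such promoters are the CCAAT box bound by NF-Y, the ETS site bound by GABPA and its relatives, and the GC box bound by SP factors, whereas a TATA box, which sets transcription off in 1 direction, is rarer.

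The stretches of 3 pairs are shown first because they span the arrangements described below. Capitals mark the motifs searched, on either strand, letters run 5′ to 3′ on the plus strand, and each is the longest run between the TSSs that met no exon of any annotated transcript, so that the minus-strand gene starts to the left and the plus-strand gene to the right. SARS2/MRPS12 (chr19:38930764-38930943), the mitochondrial seryl-tRNA synthetase and a mitochondrial ribosomal protein, held 4 NF-Y boxes and 1 GC box. TK1/AFMID (chr17:78187234-78187357), with the gene of thymidine kinase, held 2 GC boxes and 1 TATA box. ZSCAN32/ZNF174 (chr16:3401066-3401214), of which both are zinc finger genes, had one of the highest ratios of sgSNHG1 to control.
SARS2/MRPS12: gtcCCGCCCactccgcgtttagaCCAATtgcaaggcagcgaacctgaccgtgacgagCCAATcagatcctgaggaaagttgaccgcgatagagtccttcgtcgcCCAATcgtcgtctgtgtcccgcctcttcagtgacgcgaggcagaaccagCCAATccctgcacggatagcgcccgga
TK1/AFMID: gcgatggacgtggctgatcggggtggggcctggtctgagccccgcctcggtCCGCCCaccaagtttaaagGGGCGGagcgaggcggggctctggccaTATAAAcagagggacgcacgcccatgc
ZSCAN32/ZNF174: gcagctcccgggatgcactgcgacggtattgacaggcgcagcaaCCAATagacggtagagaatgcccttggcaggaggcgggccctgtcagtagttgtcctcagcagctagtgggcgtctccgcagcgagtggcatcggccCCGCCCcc

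Nearly all divergent pairs were open. In control, 913 of 984 pairs (92.8%, 95% Wilson interval 91.0 to 94.2) overlapped a peak, against 9624 of 18075 stand-alone promoters (53.2%, 52.5 to 53.97), whose windows ran 233 bp upstream of the TSS to match the median stretch. In sgSNHG1, the counts were 892 pairs (90.7%, 88.7 to 92.3) and 8708 stand-alone promoters (48.2%, 47.4 to 48.9). The difference was 39.5 percentage points in control (Newcombe interval 37.6 to 41.2) and 42.5 in sgSNHG1 (40.4 to 44.3). Stand-alone promoters include those of genes used in other tissues only. The units also differ. A divergent stretch has a protein-coding gene start at either end, whereas a stand-alone window belongs to the start of a lone gene. These differences are therefore per region and not per gene start, as are the shares compared below. The part of the extra start in them was not tested.

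The partner of a promoter went with how often it was open. Stand-alone promoters with a non-coding gene head to head within 1 kb had a peak in 80.4% of 2046 cases in control (78.6 to 82.0). Those with a gene start on the opposite strand at or up to 1 kb downstream of theirs had one in 68.1% of 867 (64.9 to 71.1). Where no gene started on the opposite strand within 1 kb, the share was 48.7% of 15162 (47.9 to 49.5). Starts on the same strand were not looked for. Base composition moved with this. Windows of 300 bp were called high in CpG at a GC content of at least 55% and a ratio of observed to expected CpG of at least 0.6, and 790 divergent windows (80.3%) met this against 10782 stand-alone ones (59.7%). Among high-CpG promoters alone, the share with a control peak was 94.3% for divergent pairs (92.5 to 95.7), 86.6% with a non-coding partner (84.9 to 88.1) and 74.7% with no opposite-strand start (73.8 to 75.6). Among low-CpG promoters, 168 of 194 divergent pairs (86.6%) had a control peak, against 1351 of 7293 stand-alone promoters (18.5%).

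**Figure D1:**
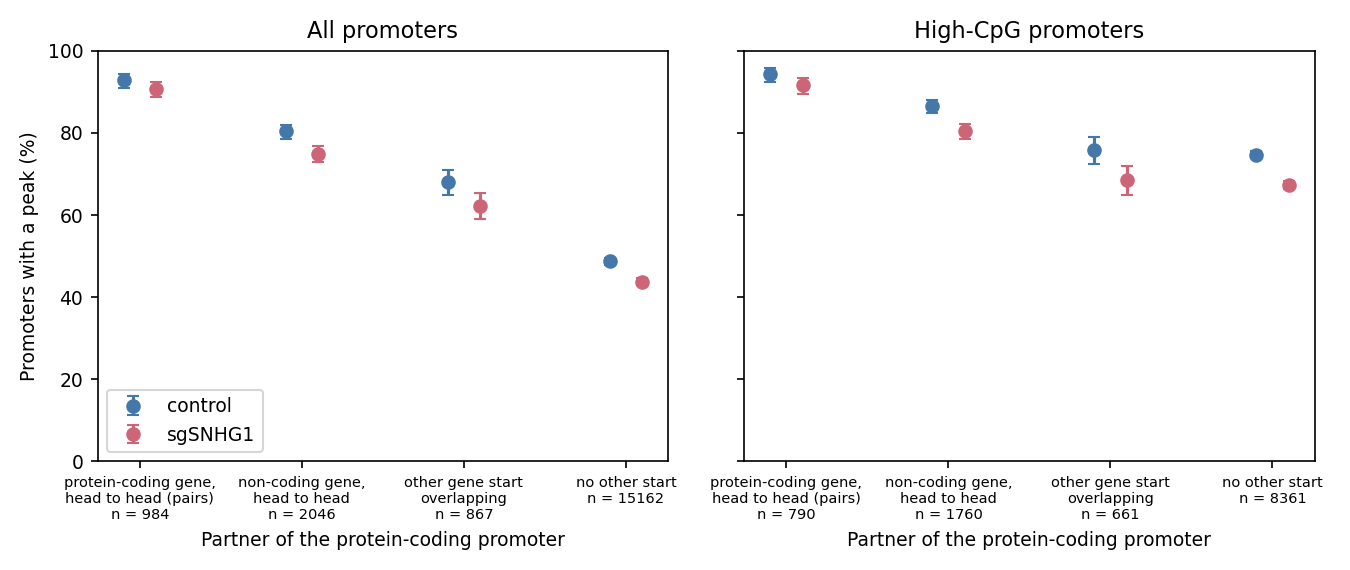
Share of protein-coding promoters with a peak (%, y axis) by the partner of the promoter (x axis), in the control (blue) and sgSNHG1 (red) lists, with 95% Wilson intervals; the right panel holds high-CpG promoters alone. Starts of other genes were looked for on the opposite strand alone, within 1 kb. Divergent pairs, each counted as a whole with a gene start at either end, lie highest in both panels, at 92.8% and 94.3% in control.

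The peaks at divergent pairs were also higher and wider. Where a peak was present, the median of the highest fold enrichment in control was 8.56 at divergent pairs (95% order-statistic interval 8.25 to 8.81) and 7.67 at stand-alone promoters (7.59 to 7.75), a difference of 0.893 (0.603 to 1.18). In sgSNHG1 it was 8.18 (7.98 to 8.45) against 7.36 (7.31 to 7.44), a difference of 0.824 (0.584 to 1.06). Stand-alone promoters with a non-coding gene head to head had 8.21 (8.07 to 8.38) in control and 7.86 (7.70 to 8.04) in sgSNHG1. These intervals overlapped those of divergent pairs. With no opposite-strand start the medians were 7.51 and 7.30, and with an overlapping start 7.82 and 7.14. Divergent pairs ranged from 3.22 to 21.2 in control and from 2.86 to 24.8 in sgSNHG1. Control peaks had a median width of 704 bp at divergent pairs and 642 bp at stand-alone promoters, and sgSNHG1 peaks 540 bp and 468 bp.

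The highest fold enrichment in control was at FAM72B/SRGAP2C on chromosome 1, at 21.2 in control and 23.7 in sgSNHG1. FAM72A/SRGAP2, a copy of the same segment elsewhere on that chromosome, had 18.5 and 24.8. These are near-identical duplicated genes, and the authors removed reads that aligned to more than 1 place. The values at each copy therefore rest on the reads that were kept, and how many were lost is not known. SRGAP2B/FAM72D, a further copy on that chromosome named after its values were seen, had no peak in either list. The part of removed reads in this was not tested. LMBRD2/SKP2, with the gene of an F-box protein that marks cell cycle inhibitors for breakdown, had 17.4 in control and 12.6 in sgSNHG1. WBP11/C12orf60, with a splicing factor gene, had 16.9 and 17.7. Of these 4, the sgSNHG1 value was the lower at LMBRD2/SKP2 and the higher at the others.

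At most pairs 1 peak spanned the whole arrangement. In control, the highest peak covered both TSSs at 761 of 913 pairs (83.4%, 80.8 to 85.6), and in sgSNHG1 at 648 of 892 (72.6%, 69.6 to 75.5). The share depended on the distance between the TSSs, which ran from 11 to 1000 bp with a median of 233.5. At 1 to 100 bp it was 94.5% in control and 94.3% in sgSNHG1. Over 400 bp it was 55.7% (49.2 to 62.0) and 35.9% (29.9 to 42.4). The sgSNHG1 peaks were narrower over their whole list, at a median of 238 bp against 332 bp in control, and the part of this in the lower coverage of both TSSs was not tested. A pair held 2 peaks in 23 cases in control and in 57 in sgSNHG1, of which 20 and 45 had TSSs over 400 bp apart.

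Most summits lay between the TSSs, at 70.6% of the pairs with a control peak (67.6 to 73.5) and 74.6% of those with an sgSNHG1 peak (71.6 to 77.3). The median distance of control summits from the midpoint was 71 bp (65 to 76) and that of sgSNHG1 summits 70.5 bp (63 to 76), and the median offset towards the plus-strand gene was -4 bp (-11 to 4) and -5 bp (-12 to 4). Stand-alone promoters had their summit at a median of -61 bp (control) and -66 bp (sgSNHG1) from the TSS, where a negative value is upstream. At divergent pairs summits lay a median of 65 bp (control) and 61 bp (sgSNHG1) from the nearer TSS, to whichever side. These last values carry no sign, so they cannot be compared with those of stand-alone promoters. At distances over 200 and up to 400 bp, 86.3% of summits in control (82.0 to 89.7) and 88.7% in sgSNHG1 (84.7 to 91.8) lay between the TSSs. At 1 to 100 bp, where the stretch is short, it was 29.7% and 38.0%. Over 400 bp, summits were spread out, at a median of 187.5 bp from the midpoint among control peaks and 204 bp among sgSNHG1 peaks.

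**Figure D2:**
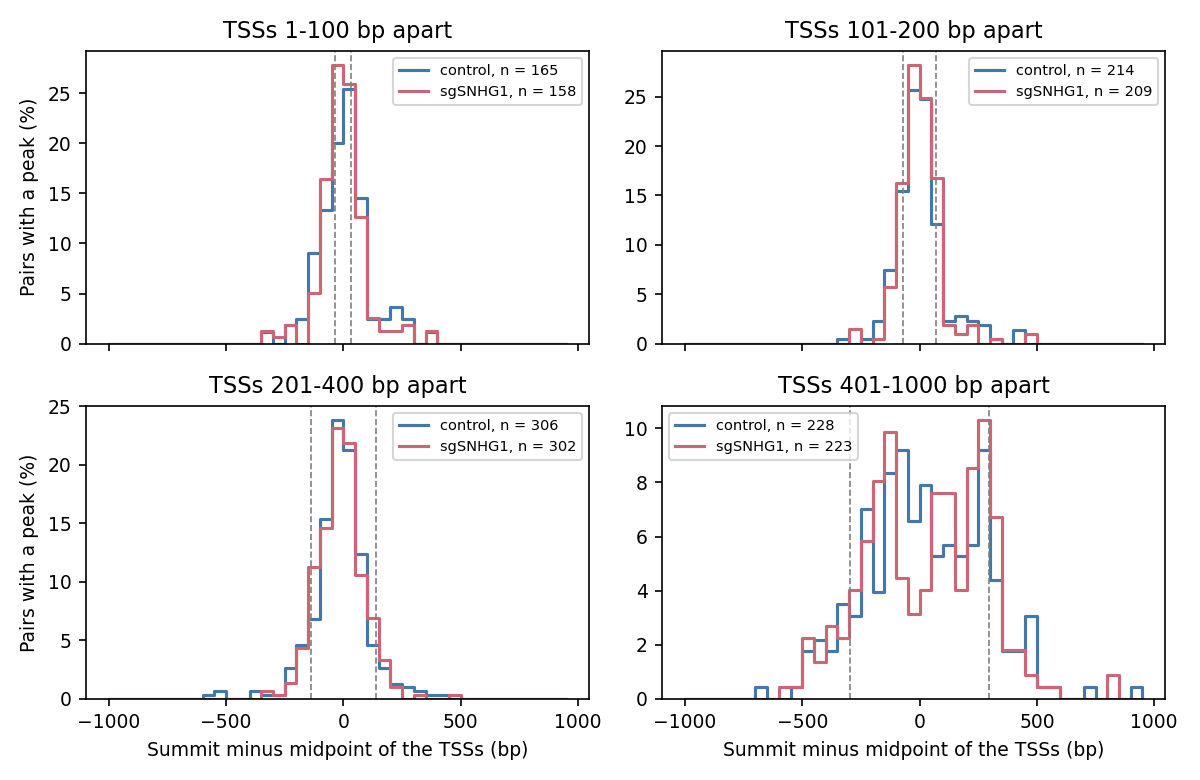
Position of the summit relative to the midpoint between the TSSs (bp, x axis, plus-strand gene to the right) as a share of pairs with a peak (%, y axis), in bins of 50 bp, for 4 ranges of the distance between TSSs; dashed lines mark the median TSS positions, blue is control and red sgSNHG1. Up to 400 bp the summits form 1 group around the midpoint, and over 400 bp they spread over the stretch.

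**Figure D3:**
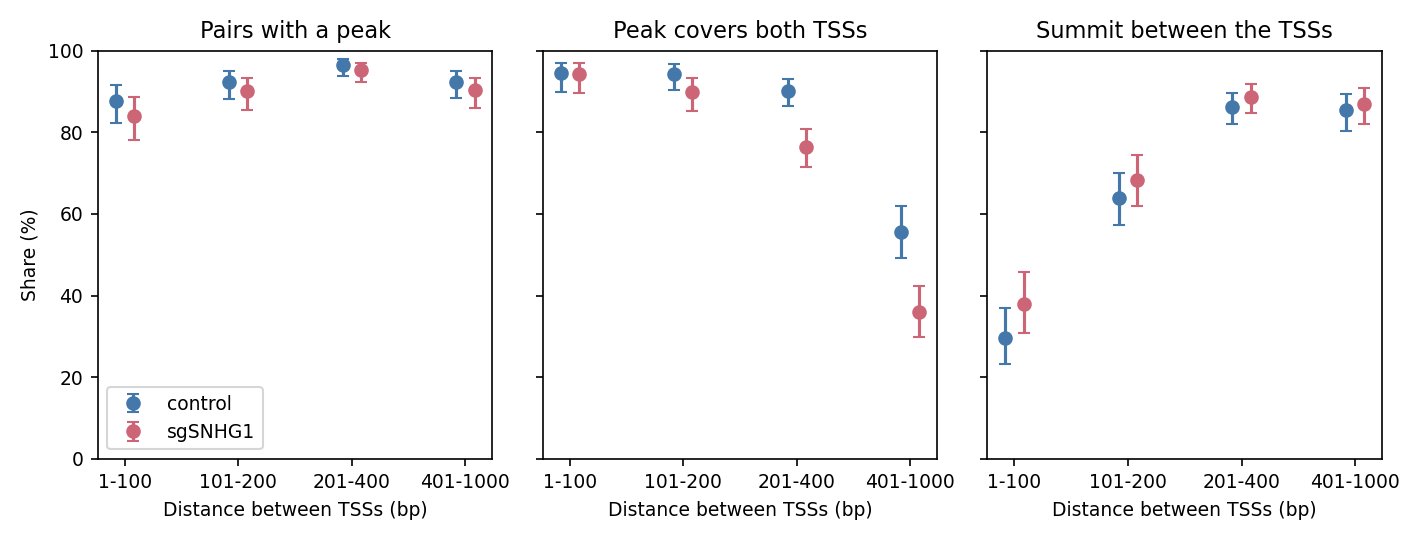
Share of pairs with a peak, share of these whose peak covers both TSSs and share whose summit lies between the TSSs (%, y axes) by distance between the TSSs (bp, x axes), with 95% Wilson intervals, in control (blue) and sgSNHG1 (red). Coverage of both TSSs falls from 94.5% to 55.7% in control and from 94.3% to 35.9% in sgSNHG1 between the shortest and the longest range.

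The pairs nearest the limit of 1 kb show the edge of the rule. ATP6V1G2/NFKBIL1, at 1000 bp, was enriched 7.30-fold in control and 6.31-fold in sgSNHG1. HNRNPA2B1/CBX3, an RNA-binding protein and a heterochromatin protein at 999 bp, had 7.08 and 7.26. Its control peak was 1920 bp long, spanning both TSSs, while the sgSNHG1 peak was 508 bp and did not. ABHD14B/ABHD14A-ACY1 and ABHD14B/ABHD14A, just outside at 1011 and 1015 bp, shared a peak of 4.37 in control and 4.55 in sgSNHG1. The longest control peak at any pair, 1969 bp, was at RPL7/RDH10, where the sgSNHG1 peak was 1809 bp. CCDC148/PKP4 had 1730 bp and 963 bp, MBTD1/UTP18 1630 bp and 965 bp, and AIDA/BROX 1571 bp and 633 bp. All 5 of the longest control peaks were shorter in sgSNHG1, but they were picked for their length in control. Over the 884 pairs with a peak in both lists, 732 (82.8%) had a shorter peak in sgSNHG1. The median log2 ratio of width was -0.33 at these pairs, beside -0.39 at stand-alone promoters.

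Peaks at divergent pairs were found in both lists more often than other peaks. Of the 913 pairs with a control peak, 884 (96.8%, 95.5 to 97.8) also had an sgSNHG1 peak, against 87.8% of stand-alone promoters (87.1 to 88.5), a difference of 9.01 percentage points (7.52 to 10.2). Counted by peaks, 22 of the 865 control peaks at divergent pairs (2.54%) had no overlapping sgSNHG1 peak. The share was 8.87% of control peaks at stand-alone promoters and 33.3% of all control peaks. In the other direction, 9 of 877 sgSNHG1 peaks (1.03%) had no overlapping control peak, beside 2.71% at stand-alone promoters and 21.8% of all sgSNHG1 peaks. Stronger peaks were kept more often in either class. For control peaks with a -log10 q of 2 to 5, 10 of 15 divergent pairs (66.7%, 41.7 to 84.8) and 34.4% of stand-alone promoters (30.0 to 39.1) had an sgSNHG1 peak. At 10 to 20, the shares were 98.1% (95.2 to 99.3) and 89.2% (87.9 to 90.3), and at 20 and above 99.7% (98.8 to 99.9) and 98.3% (97.9 to 98.6).

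The fold enrichment of the 884 pairs with a peak in both lists was compared between the lists pair by pair. At 880 of them the highest peaks of the 2 lists overlapped each other. The median log2 ratio of sgSNHG1 over control was -0.06 (-0.08 to -0.04), with quartiles of -0.23 and 0.11, and at 8451 stand-alone promoters it was -0.09 (-0.09 to -0.08). For all 31663 matched pairs of peaks the median was -0.045, inside the interval of the divergent pairs. The difference of the medians, divergent minus stand-alone, was 0.02 (-0.0007 to 0.05). Its interval lay above 0 with TSSs from the gene record (0.04, 0.02 to 0.06), with 1 pair per merged stretch (0.024, 0.00072 to 0.047) and on the fragments at the summit scaled to each list's background (0.06, 0.04 to 0.09). It included 0 under every other alternative run for it. At a -log10 q of at least 10 the difference was 0.0048 (-0.021 to 0.031), with the summit inside the stretch 0.011 (-0.024 to 0.046), and among high-CpG promoters 0.018 (-0.0059 to 0.043). Lower by at least 0.5 on the log2 scale were 52 pairs (5.88%, 4.51 to 7.63), beside 9.06% of all 31663 matched pairs of peaks and 8.45% of stand-alone promoters (7.87 to 9.06). Higher by at least 0.5 were 12 pairs (1.36%, 0.778 to 2.36), beside 5.37% of all matched peaks and 1.69% of stand-alone promoters. On scaled fragments 7.92% of pairs were lower and 4.64% higher by that much, beside 11.8% and 5.70% of stand-alone promoters and 11.8% and 11.2% of all matched peaks. The counting error of such a ratio, from the fragments at the summits, had a median of 0.32 on the log2 scale, and the spread of the ratios over pairs was 0.25 (robust SD). Lower by more than 2 counting errors were 11 pairs (1.24%), beside 1.82% of stand-alone promoters and 1.52% of all matched peaks. Higher by as much were 7 pairs (0.792%), beside 0.355% of stand-alone promoters and 1.08% of all matched peaks.

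Ratios were ranked among pairs whose peaks reached a -log10 q of 10 in each list. At the low end, ANAPC10/ABCE1 and ENSG00000285713/ABCE1 on chromosome 4 share 1 peak, enriched 11.8-fold in control and 7.23-fold in sgSNHG1 (log2 ratio -0.71, counting error 0.37). ABCE1 recycles ribosomes and ANAPC10 is a subunit of the anaphase-promoting complex. Chromosome 4 as a whole was low, with a median log2 ratio of -0.38 (-0.44 to -0.16) over 32 pairs, against -0.06 (-0.08 to -0.03) over the 792 pairs outside chromosomes 4, 9 and X. On the pile of fragments at the summit, scaled to each list's own background, chromosome 4 stood at -0.85 (-1.15 to -0.37) and those others at -0.004 (-0.03 to 0.01). The part of a chromosome-wide shift in the ABCE1 values was not tested. PPP1R10/MRPS18B, a phosphatase regulator and a mitochondrial ribosomal protein, had 8.67 and 5.42 (-0.68, 0.33). STARD6/C18orf54 had 11.1 and 6.99 (-0.67, 0.42). DST/BEND6, with the gene of the cytoskeletal linker dystonin, had 11.2 and 7.06 (-0.67, 0.31), with summits 350 and 460 bp to the BEND6 side of the midpoint.

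The highest ratio was at GLA/HNRNPH2 on chromosome X, an alpha-galactosidase and an RNA-binding protein, with 7.87 in control and 13.5 in sgSNHG1 (log2 ratio 0.78, counting error 0.31). The 22 pairs of chromosome X had a median of 0.03 (-0.26 to 0.21), and on scaled fragments 0.33 (-0.06 to 0.50). ZSCAN32/ZNF174 had 9.04 and 14.4 (0.67, 0.30). NDUFS1/EEF1B2, a subunit of respiratory complex I and a translation elongation factor, had 8.51 and 12.9 (0.60, 0.27). AK9/FIG4, an adenylate kinase and a lipid phosphatase, had 8.02 and 11.97 (0.58, 0.31). RETSAT/ELMOD3, with the gene of retinol saturase, had 8.01 and 11.9 (0.58, 0.31).

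A peak was present in control alone at 29 pairs and in sgSNHG1 alone at 8. The highest of the former were FBXO8/CEP44 on chromosome 4 at 8.22, ACACA/TADA2A, with the gene of acetyl-CoA carboxylase, at 7.07, and FIZ1/ZNF524 at 6.03. At FBXO8/CEP44 the control peak reached only the edge of the stretch, with its summit at -544 bp from the midpoint on the FBXO8 side. The highest with a peak in sgSNHG1 alone was SMYD4/RPA1, with a subunit of the single-stranded DNA binding complex RPA, at 5.52. It was followed by KIAA0753/TXNDC17 and ENSG00000282936/TXNDC17, which share 1 peak of 4.78. All of these lay below the median of the pairs with a peak. At 63 pairs no peak was called in either list, and 39 of these (61.9%, 49.6 to 72.9) were high in CpG, against 81.5% (78.9 to 83.9) of the pairs with a peak.

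Of the divergent pairs known from textbooks, 18 met the rule. NPAT/ATM, a histone gene coactivator and the DNA damage kinase, had a fold enrichment of 13.0 in both lists, with 189 fragments at the summit in control and 132 in sgSNHG1. HSPD1/HSPE1, the mitochondrial chaperonin and its cochaperonin, had 11.3 in control and 12.2 in sgSNHG1. PDCD10/SERPINI1 had 10.2 and 11.6, PRKDC/MCM4, a DNA repair kinase and a subunit of the replicative helicase, 10.2 and 9.87, and GART/SON, with a purine synthesis gene, 10.7 and 9.42. TK1/AFMID had 9.41 and 9.10, TMEM258/FEN1, with the flap endonuclease gene, 7.54 and 5.59, and PPAT/PAICS, both enzymes of purine synthesis, 6.94 and 7.46. In fold enrichment, the differences at these pairs lay within 2 counting errors. PPAT/PAICS lies on chromosome 4, with 63 fragments at the summit in control and 29 in sgSNHG1. On scaled fragments its log2 ratio was -0.76 (counting error 0.32), and the part of a chromosome-wide shift in this was not tested. Its summits lay -122 bp (control) and 331 bp (sgSNHG1) from the midpoint.

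Other textbook pairs were weaker or showed a peak in 1 list only. TAP1/PSMB9, a peptide transporter and an immunoproteasome subunit, had 8.19 in control and 4.73 in sgSNHG1 (log2 ratio -0.79, counting error 0.44). SARS2/MRPS12 had 6.24 and 8.99 (0.53, 0.44), and NTHL1/TSC2 6.93 and 5.81 (-0.26, 0.37). At SIRT3/PSMD13 the values were 7.07 and 7.02, but the highest peaks of the 2 lists did not overlap, with the control summit on the SIRT3 side and the sgSNHG1 summit on the PSMD13 side. The control list held 2 peaks in this stretch and the sgSNHG1 list 1. RECQL4/LRRC14 had a control peak of 3.73 and ZAR1L/BRCA2 one of 5.62, and neither had a peak in sgSNHG1. SURF1/SURF2 and COL4A4/COL4A3 had none in either list. COL4A1/COL4A2, the type IV collagen pair of most basement membranes, had 3.98 and 3.84. Outside the rule lay COL4A5/COL4A6, whose TSSs were 1416 bp apart, UNG/ALKBH2 and ADSL/TNRC6B. The type IV collagen stretches are shown as a pair of genes with a weak peak and one with none. COL4A1/COL4A2 (chr13:110307158-110307257) had an NF-Y box and a GC box in the run shown and COL4A4/COL4A3 (chr2:227164206-227164395) had none of the motifs searched in its run. In windows of 300 bp, both pairs held a GC box and 1 of 2 held an NF-Y box.
COL4A1/COL4A2: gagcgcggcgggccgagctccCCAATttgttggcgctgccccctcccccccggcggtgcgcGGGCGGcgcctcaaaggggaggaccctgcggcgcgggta
COL4A4/COL4A3: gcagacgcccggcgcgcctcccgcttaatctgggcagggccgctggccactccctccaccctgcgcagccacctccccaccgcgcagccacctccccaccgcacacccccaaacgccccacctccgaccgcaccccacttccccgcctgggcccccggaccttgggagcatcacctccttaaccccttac

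By gene group, 52 of 170 DNA repair and replication genes (30.6%, 24.2 to 37.9) and 82 of 262 genes of mitochondrial proteins (31.3%, 26.0 to 37.1) belonged to a divergent pair, against 9.49% of all protein-coding genes. The share was 26 of 73 for histone genes (35.6%, 25.6 to 47.1), 13 of 84 for cytosolic ribosomal proteins (15.5%, 9.27 to 24.7) and 46 of 612 for C2H2 zinc finger genes (7.52%, 5.68 to 9.88).

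As a baseline for the gene groups, 92.8% of all 984 pairs had a peak in control and 90.7% in sgSNHG1, with median enrichments of 8.56-fold and 8.18-fold. The 52 DNA repair and replication pairs had a peak in control at 51 and in sgSNHG1 at 50. Their median enrichment was 8.51-fold in control and 8.87-fold in sgSNHG1, and the median log2 ratio was 0.03, with 32 of 49 above 0, beside -0.06 and 369 of 884 over all pairs. RARS2/ORC3, with a subunit of the origin recognition complex, had 16.0 in control and 14.6 in sgSNHG1. MRE11/ANKRD49, with the nuclease of double-strand break repair, had 15.8 and 14.4. TMEM167A/XRCC4, with an end-joining factor, had 15.6 and 15.9, and RECQL/GOLT1B, with a DNA helicase, 14.5 and 12.5. Of 49 with a ratio, 2 were lower by at least 0.5 and 0 higher, beside the 5.88% and 1.36% of all pairs.

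Mitochondrial proteins were encoded at 80 pairs, of which all 80 had a control peak and 78 an sgSNHG1 peak, beside 92.8% and 90.7% of all pairs. Their median enrichment was 9.44-fold in control and 8.82-fold in sgSNHG1, beside 8.56-fold and 8.18-fold over all pairs. The median log2 ratio was -0.06, with 45 of 78 below 0, beside 515 of 884 over all pairs. PSMA2/MRPL32, a proteasome subunit and a mitochondrial ribosomal protein, had 13.9 and 15.9, and HYCC2/NDUFB3, with a complex I subunit, 13.3 and 10.4. The 14 pairs with a cytosolic ribosomal protein all had a peak in both lists, at medians of 7.41 and 6.89 and a median log2 ratio of -0.07. CLHC1/RPS27A had 10.4 and 7.38, NKIRAS1/RPL15 10.5 and 9.91, RPL9/LIAS 9.61 and 8.98, and TRIM66/RPL27A 9.54 and 10.4. C2H2 zinc finger genes, of which most are repressors of transcription, were at 38 pairs, with a median log2 ratio of -0.07. A peak was present at 36 of these in control and 34 in sgSNHG1, beside 92.8% and 90.7% of all pairs. The highest were MRPL50/ZNF189 at 12.7 and 15.9, CGGBP1/ZNF654 at 12.2 and 11.6, and ZNF891/ZNF10 at 11.8 and 10.2.

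Histone genes, which package DNA and are transcribed in S phase, made up 14 pairs. Of these, the H2A and H2B pairs lay 194 to 251 bp apart, and H3C7/H2BC9 lay 979 bp apart, with 2 peaks in each list, of which the highest did not overlap between the lists. A peak was present at 13 pairs in each list, and the pair without one was H2AC1/H2BC1, the testis pair, named after its values were seen. Median enrichment was 7.11-fold in control and 8.08-fold in sgSNHG1, beside 8.56-fold and 8.18-fold over all pairs. The log2 ratio, from -0.26 to 0.44 with a median of 0.14, was above 0 at 10 of 13 pairs, beside 369 of 884 over all pairs. Among the 13, H2AC7/H2BC7 and ENSG00000282988/H2BC7 share 1 peak. H2AC15/H2BC15 had 10.3 and 10.8, H2BC12/H2AC12 9.68 and 8.08, H2BC8/H2AC8 8.76 and 9.66, and H2BC13/H2AC13 8.63 and 9.94. Their counting errors were 0.27 to 0.31 on the log2 scale, larger than the size of each ratio.

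Histone pairs shared sequence elements. All 14 windows of 300 bp at histone pairs held an NF-Y box and 10 held a TATA box, while 1 held a GC box and 0 an ETS site. The stretches of 2 of them are shown for this reason: H2BC11/H2AC11 (chr6:27132796-27133042) with 4 NF-Y boxes and with TATA boxes at either end, and H2AC15/H2BC15 (chr6:27838376-27838544) with 3 NF-Y boxes. Beside them stands DST/BEND6 (chr6:56954831-56955106), a GC-rich stretch with 4 GC boxes, 1 E-box and no NF-Y box.
H2BC11/H2AC11: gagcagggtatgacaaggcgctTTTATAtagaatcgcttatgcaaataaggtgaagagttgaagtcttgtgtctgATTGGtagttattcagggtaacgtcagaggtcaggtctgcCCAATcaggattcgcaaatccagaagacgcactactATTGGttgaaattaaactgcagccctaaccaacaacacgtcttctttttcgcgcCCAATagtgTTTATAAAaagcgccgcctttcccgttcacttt
H2AC15/H2BC15: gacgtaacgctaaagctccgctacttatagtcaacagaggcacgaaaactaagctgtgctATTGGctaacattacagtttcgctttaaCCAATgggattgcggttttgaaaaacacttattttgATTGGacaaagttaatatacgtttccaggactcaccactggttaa
DST/BEND6: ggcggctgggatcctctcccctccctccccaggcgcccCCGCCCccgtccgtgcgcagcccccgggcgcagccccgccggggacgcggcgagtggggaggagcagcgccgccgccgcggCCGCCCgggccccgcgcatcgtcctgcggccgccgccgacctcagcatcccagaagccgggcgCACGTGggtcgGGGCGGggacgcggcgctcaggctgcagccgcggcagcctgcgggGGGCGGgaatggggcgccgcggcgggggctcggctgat

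Over all 984 pairs, the motif that set divergent promoters most apart was the ETS site (CCGGAA on either strand), in 44.4% of windows of 300 bp centred between the TSSs (41.3 to 47.5) against 20.4% of stand-alone windows (19.8 to 21.0), from 250 bp upstream to 50 bp downstream of the TSS. Over all promoter windows together the share was 21.6%, and in windows 5 kb away it was 3.25% and 3.11%. The GC box (GGGCGG) was in 72.5% (69.6 to 75.2) against 60.02% (59.3 to 60.7), and in 60.7% of all windows. Among high-CpG windows alone the order of the GC box turned, to a difference of -2.93 percentage points (-5.91 to -0.232). The NF-Y box (CCAAT) was in 41.8% (38.7 to 44.9) against 35.5% (34.8 to 36.2), in 35.8% of all windows and in 32.0% and 32.5% of those 5 kb away. The TATA box (TATAAA) was in 4.47% (3.35 to 5.95) against 10.3% (9.91 to 10.8), in 10.0% of all windows and in 23.7% and 21.4% of those 5 kb away. Among high-CpG windows its difference was -1.28 percentage points (-2.24 to 0.110).

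The other motifs were also more common at divergent pairs, and the interval of each difference lay above 0 in windows of 300 bp. It included 0 among high-CpG windows for the E-box (0.841 percentage points, -1.26 to 3.30) and the BANP site (0.372, -0.381 to 1.57). In windows of 200 bp it included 0 for the E-box (1.45, -0.147 to 3.36), the BANP site (0.451, -0.0881 to 1.36) and the YY1 site (0.405, -0.438 to 1.61). The NRF1 site (GCGCATGCG) was in 5.49% against 2.43% and in 2.59% of all windows, the YY1 site (AAGATGGCG) in 4.98% against 2.48% and in 2.61%, the CRE (TGACGTCA) in 4.37% against 2.51% and in 2.61%, and the E-box (CACGTG), which MYC and MYCN bind, in 10.8% against 8.52% and in 8.64%. The BANP site (TCTCGCGAG) was in 1.73% against 0.913% and in 0.955%, and the ZNF143 site (ACTACAATT) in 1.22% against 0.371% and in 0.415%. A match says only that the letters are in the window.

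**Figure D4:**
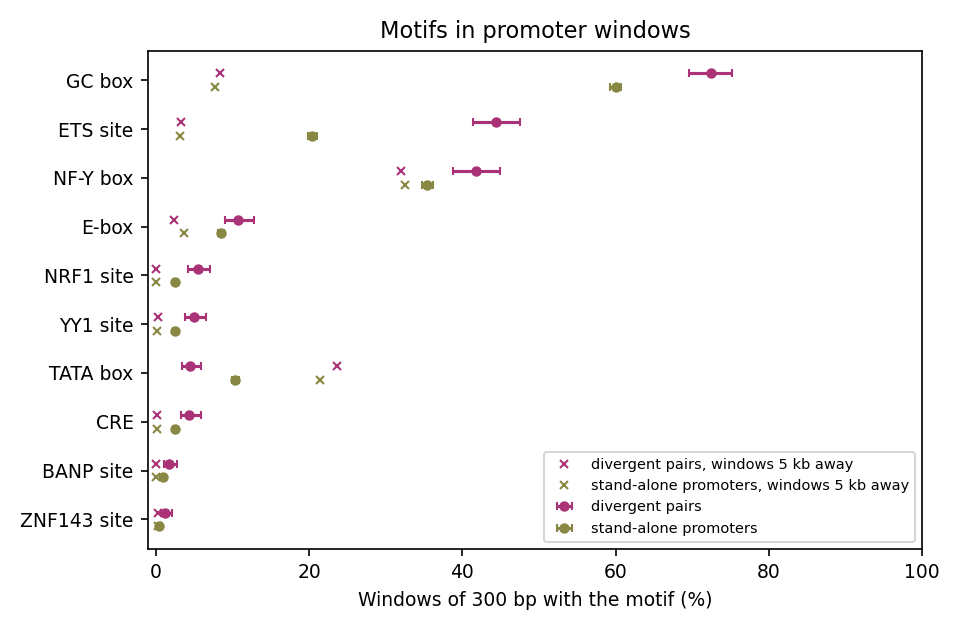
Share of windows of 300 bp that hold each motif (%, x axis) at divergent pairs (purple) and stand-alone promoters (olive), with 95% Wilson intervals; crosses mark windows 5 kb away. The ETS site shows the widest gap, 44.4% against 20.4%, and the TATA box alone is lower at divergent pairs.

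Among divergent pairs, the ETS site was more common where a peak was called. It was in 46.1% of windows at the 921 pairs with a peak in either list (42.9 to 49.4) and in 12 of the 63 without (19.0%, 11.2 to 30.4), a difference of 27.1 percentage points (15.3 to 35.5). The intervals of the same difference included 0 for the 9 other motifs, among them the NF-Y box (7.32, -5.41 to 18.4) and the GC box (6.19, -4.61 to 18.8). Pairs with an ETS site had a median fold enrichment in control of 8.99 (8.64 to 9.37) and those without 8.20 (7.88 to 8.51). For the NF-Y box the medians were 8.99 (8.70 to 9.42) and 8.15 (7.88 to 8.38), and for the GC box 8.64 (8.22 to 8.92) and 8.51 (8.11 to 8.81). The ZNF143 site was in 12 pairs, and the median was higher by 2.44 (1.01 to 3.87) with it than without. For the E-box the difference of medians was -0.554 (-1.24 to 0.132), for the CRE -0.180 (-1.31 to 0.950) and for the TATA box -0.181 (-1.24 to 0.882). The log2 ratio of sgSNHG1 over control differed by 0.08 between pairs with and without the NF-Y box (0.02 to 0.13) and by -0.02 for the ETS site (-0.06 to 0.03). For the E-box the difference was -0.04 (-0.09 to 0.02). The interval of this difference included 0 for each of the 9 motifs other than the NF-Y box. No allowance was made for the number of motifs looked at.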

How the data were processed

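ATAC-seq peaks of 4 samples, 2 control and 2 sgSNHG1, were read from the 2 deposited lists, 1 per group. Per the labels and the study's methods, the authors trimmed reads with cutadapt, aligned them to GRCh38 with BWA, removed duplicates with Picard and GATK, dropped mitochondrial, multiply aligned and blacklisted reads, shifted cut sites by 4 and 5 bp with deepTools, combined replicates and called peaks with MACS2 in paired-end mode; versions are not given in the sources used here. The deposited values are the fold enrichment at the summit, its -log10 p and its -log10 q score. Total read depth is not given, and the lowest -log10 q was 2.00 among control and 2.01 among sgSNHG1 peaks. Combining replicates removes their spread, and a deeper or longer-fragment library gives more and wider peaks.

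A region had a peak if at least 1 bp overlapped, and the peak of highest fold enrichment was used. Fragments at the summit were solved from fold enrichment and -log10 p (tolerance 0.001), as the log2 ratio's counting error needs them. This was tested on simulated data. Peaks were matched across the lists by mutual best overlap. Shares have 95% Wilson intervals, their differences Newcombe intervals, and medians exact order-statistic intervals (python 3.11.15, scipy 1.17.1, pysam 0.24.0). Sequences were read from GRCh38.

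Pairs and gene lists were chosen with earlier results of these data known. Named are the textbook pairs, the 5 highest control values, the 5 lowest and 5 highest ratios, the 3 highest found in 1 list only, those nearest 1 kb, up to 4 per gene list and the 5 longest peaks. Some items that these rules name are not reported here. Alternatives were other TSSs, a limit of 500 bp, stricter q, the summit, windows of 1 kb, other stand-alone sets, scaled fragments, chromosomes left out, CpG content and 1 pair per merged stretch.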

Additional observations from a re-analysis of the deposited data

How the results depend on the processing

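No paired analysis was possible because each list pools the replicates of its group, and for the same reason no replicate could be left out. The direction of each difference between divergent and stand-alone promoters held under the alternatives run, with 1 exception: the GC box among high-CpG promoters, at -2.93 percentage points. Of 240 values under alternatives, 183 stayed within the interval of the reported value.

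With TSSs from the gene record (887 pairs), the difference in share with a peak was 43.5 percentage points in control and 45.6 in sgSNHG1, both TSSs were covered at 78.5% of sgSNHG1 pairs, and the summit lay between them at 52.0% in control and 56.8% in sgSNHG1. With TSSs at most 500 bp apart (810 pairs), both were covered at 91.0% in control and 82.6% in sgSNHG1, and the differences for the GC box and the ETS site were 15.8 and 28.6 percentage points. At a -log10 q of at least 10, the difference in share with a peak was 40.3 in sgSNHG1, that in median fold enrichment 0.562 in control and 0.344 in sgSNHG1 and that in share kept 10.8 percentage points, while 3.16% of pairs were lower by at least 0.5 and both TSSs were covered at 87.7% in control and 80.6% in sgSNHG1. With the summit required inside the stretch, the differences in share with a peak were 34.7 in control and 35.9 in sgSNHG1, that in share kept was 10.5, the median log2 ratio was -0.034 and 4.08% of pairs were lower by at least 0.5. Windows of 1 kb gave 36.5 and 39.7, stand-alone promoters with no opposite-strand start within 1 kb 44.04 and 46.9, and high-CpG promoters 17.6 and 22.1 percentage points. On scaled fragments the median log2 ratio of pairs was -0.0069, its difference from stand-alone promoters 0.060 (0.035 to 0.085), and 7.92% of pairs were lower by at least 0.5. Windows of 200 bp gave 3.78 for the GC box and 17.2 for the ETS site, and high-CpG windows -1.28 for the TATA box, with an interval that included 0 (-2.24 to 0.110). High-CpG windows for motifs, 1 pair per merged stretch and bands of q were chosen after seeing the data. The cause of these shifts was not tested.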
